A study of Mus musculus with 18 samples.

Results

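Inflammatory cytokine genes and the acute phase gene Saa3 were followed in bone marrow-derived macrophages (BMDM) loaded with oxidized low-density lipoprotein (oxLDL). The 10 genes were chosen by name: Il1a, Il1b, Il1rn, Il6, Tnf, Il10, Il12b, Il27, Ifnb1 and Saa3. All 10 were among the 18668 genes of the table, and 9 of them were among the 12838 genes expressed highly enough to be tested, the exception being Ifnb1. BMDM are macrophages grown from marrow precursors with the growth factor M-CSF. They came from C57BL6 mice lacking Apoe (Apoe-/-) and from Apoe-/-/Treml4-/- mice (DKO), an intercrossed line that also lacked Treml4, a receptor of the TREM family. The cells of both genotypes thus lacked Apoe, and no group with intact Apoe was analysed here. Cells were left untreated or received oxLDL at 10 or 60 µg/ml (oxLDL 10 and oxLDL 60) for 16 h by the series' description, whereas the study's methods give a longer exposure. A treatment label also names LPS, a bacterial product that strongly induces these genes, and which cells may have received it could not be settled. Each of the 6 groups had 3 replicates, 18 libraries in all. The ages and sexes of the mice are not given in the labels used here.

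The products of these genes are the signals by which macrophages start, spread and stop inflammation. IL-1α, encoded by Il1a, and IL-1β, encoded by Il1b, act on 1 shared receptor, which the antagonist encoded by Il1rn occupies without signalling. TNF, encoded by Tnf, and IL-6 are early inflammatory cytokines, the Il12b product is the p40 subunit shared by IL-12 and IL-23, and the Il27 product is the p28 subunit of IL-27. Interferon-β, encoded by Ifnb1, starts the antiviral response, while IL-10 restrains macrophage activation. Saa3 is the serum amyloid A gene that mouse macrophages themselves transcribe during inflammation. Most of these genes are switched on by the transcription factor NF-κB, often with C/EBP, AP-1 or interferon regulatory factors.

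Levels are in RPKM (reads per kilobase of transcript, scaled to the reads of the library), so that levels of different genes can be compared per length. The depth recovered from the table was 39.7 to 54.2 M reads per library. As a check of the labels, Treml4 stood at 1.86 to 8.39 RPKM in the 9 Apoe-/- libraries and was listed at 0 in 8 of the 9 DKO libraries, with 0.0116 RPKM as the highest DKO value. Apoe kept 0.349 to 4.13 RPKM of residual transcript. Replicate 2 of Apoe-/- and replicate 3 of DKO, 6 libraries in all, held 7.25 to 14.5 RPKM of Xist and a summed level of at most 0.0515 RPKM for 4 Y-linked genes. The other 12 libraries held at most 0.069 RPKM of Xist and 41.7 to 63.4 RPKM of the Y-linked genes. The 8 macrophage markers were present in all libraries, at a summed 5560 to 11964 RPKM. Of the other lists, neutrophil markers summed to 33.3 to 86.2 RPKM, stromal markers to 0.639 to 15.3, B cell markers to 1.19 to 2.41, and markers of dendritic, T and NK, and mast cells each to at most 0.504 RPKM. The neutrophil gene Ly6g was at 0 in 15 libraries.

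Promoters of 8 of the 10 genes could be matched in the RefSeq table for GRCm38.p6, the assembly that mm10 stands for, and mm10 is the build named in the labels. Il10 and Il27 were not matched. The sequences are the 150 bases before the first listed start site, 5′ to 3′ on the strand of the gene, for the genes whose levels are described in most detail and for Il6, whose promoter held an NF-κB match. Capitals mark the matches of 5 searched motifs, namely the TATA box (TATAAA, gene strand only), AP-1 (TGANTCA), C/EBP (TTGCNNAA), the interferon-stimulated response element (ISRE) and the NF-κB consensus, each but the TATA box on both strands.
Il1b, chr2:129371140-129371289, minus strand: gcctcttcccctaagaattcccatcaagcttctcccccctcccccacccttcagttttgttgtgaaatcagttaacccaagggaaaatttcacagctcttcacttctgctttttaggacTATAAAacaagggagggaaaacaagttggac
Tnf, chr17:35202008-35202157, minus strand: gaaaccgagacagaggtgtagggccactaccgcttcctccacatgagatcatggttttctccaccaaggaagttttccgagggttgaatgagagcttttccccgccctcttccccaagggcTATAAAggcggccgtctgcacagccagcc
Il1rn, chr2:24336710-24336859, plus strand: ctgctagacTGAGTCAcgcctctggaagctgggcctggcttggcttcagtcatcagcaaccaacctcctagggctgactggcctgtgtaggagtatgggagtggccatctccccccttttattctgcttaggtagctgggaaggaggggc
Saa3, chr7:46715677-46715826, minus strand: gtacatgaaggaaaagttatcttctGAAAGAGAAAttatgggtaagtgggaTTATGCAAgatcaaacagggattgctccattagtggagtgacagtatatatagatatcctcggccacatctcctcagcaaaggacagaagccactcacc
Il6, chr5:30012964-30013113, plus strand: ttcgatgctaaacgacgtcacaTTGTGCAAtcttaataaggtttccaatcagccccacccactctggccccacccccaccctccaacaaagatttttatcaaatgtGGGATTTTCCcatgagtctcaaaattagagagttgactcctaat
The TATA box lay at -31 to -26 of Il1b and at -29 to -24 of Tnf, and Il1a also held one, at -32 to -27. Over all 300 bases searched, from 250 before to 50 after the start, 4 of the 8 genes held a TATA box. Of 32851 promoters searched for the same letters, 8.32% held one. That share and those below are counted per promoter, whereas the 8 genes are counted per gene over all their listed start sites. Il1rn has 3 listed start sites, and only the first held a match of any searched motif. The C/EBP motif was found in Il6 and Saa3 (10.8% of all promoters), AP-1 in Il1a, Il1rn and Il6 (7.81%), and the ISRE in Saa3 (3.44%). NF-κB matches were found in Il6, at -44 to -35, and in Ifnb1, at -116 to -107, against 4.51% of all promoters. The PU.1 motif GAGGAA, not capitalised, was found in Il1a, Tnf, Il12b and Ifnb1 (28.3%), and 1 of its matches in Ifnb1 overlapped the NF-κB match. These are matches of letters in a window and say nothing of binding.

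The IL-1 agonists fell steeply with oxLDL, whereas the antagonist changed less and passed the test only in Apoe-/- cells under some models. Untreated Apoe-/- BMDM held Il1b at 4.50, 8.71 and 5.57 RPKM in replicates 1 to 3, which went to 0.928, 1.02 and 0.558 RPKM at oxLDL 10 and to 0.589, 0.313 and 0.191 RPKM at oxLDL 60. In DKO cells Il1b stood at 4.24, 5.24 and 10.3 RPKM untreated, at 1.23, 0.848 and 1.09 RPKM at oxLDL 10 and at 0.336, 0.139 and 0.476 RPKM at oxLDL 60. Every treated library lay below every untreated library of its genotype, and at oxLDL 60 the 2 genotypes overlapped. On the log2(RPKM + 0.1) scale, Il1b at oxLDL 60 fell by 3.81 in Apoe-/- (SE 0.38, limma adjusted p = 7.38e-07) and by 3.99 in DKO (SE 0.38, limma adjusted p = 5e-07), 14.1-fold and 15.9-fold. In bulk RNA, fewer cells of a type and less RNA per cell cannot be told apart. At oxLDL 10 it fell 6.73-fold in Apoe-/- and 5.42-fold in DKO. Between the 2 amounts of oxLDL, the step of Il1b passed the test in DKO (log2 change -1.55, SE 0.38, limma adjusted p = 0.0101) but not in Apoe-/- (-1.06, SE 0.38, limma adjusted p = 0.0761). With the replicate number as a block, the Apoe-/- step passed as well (limma adjusted p = 0.00925), with Xist status in the model it also passed (limma adjusted p = 0.0224), and without Apoe-/- oxLDL 60 replicate 1 it was -1.39 (limma adjusted p = 0.0331). Without DKO oxLDL 60 replicate 2, the lowest library, the DKO step was -1.19 (limma adjusted p = 0.0612), and with a pseudocount of 1 it was -0.65 (limma adjusted p = 0.0738). The exons of Il1b overlap those of the antisense transcript Il1bos in GENCODE M21, those of Il1a overlap Gm14023 and those of Il27 overlap Apobr. Whether counting used the strand is not stated, so that reads of such pairs cannot be told apart.

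Il1a, on the same chromosome as Il1b and read by the same receptor, was less abundant than Il1b in untreated Apoe-/- cells, at a ratio of Il1a to Il1b of 0.237 ± 0.0356 (SD, n = 3). It stood at 1.24, 2.00 and 1.15 RPKM untreated, 0.792, 0.300 and 0.629 RPKM at oxLDL 10 and 0.542, 0.562 and 0.770 RPKM at oxLDL 60 in Apoe-/- cells. In DKO cells the values were 1.69, 1.94 and 2.16 RPKM, then 0.551, 0.776 and 0.448 RPKM, then 0.472, 0.601 and 0.335 RPKM. Untreated and treated libraries did not overlap in either genotype, and the 2 amounts of oxLDL did overlap in both. Il1a fell 2.38-fold at oxLDL 10 (limma adjusted p = 0.0109) and 2.12-fold at oxLDL 60 (limma adjusted p = 0.00621) in Apoe-/- cells. In DKO cells it fell 2.98-fold (limma adjusted p = 0.00304) and 3.62-fold (limma adjusted p = 7.02e-05). The step between the 2 amounts was 0.17 (95% interval -0.41 to 0.75) in Apoe-/- and -0.28 (-0.86 to 0.30) in DKO on the log2 scale, neither past the test. The Apoe-/- call at oxLDL 10 was lost without untreated replicate 2 (limma adjusted p = 0.0628), without the Xist-positive libraries (limma adjusted p = 0.0593) and with only the groups compared (limma adjusted p = 0.056). Because Il1b fell further than Il1a, the ratio of Il1a to Il1b was 2.25 ± 1.61 (SD, n = 3) at oxLDL 60 in Apoe-/- and 2.14 ± 1.92 in DKO, ranging from 0.704 to 4.32 over the 6 libraries.

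Il1rn, the antagonist, was among the 3 most abundant of the 10 genes. In Apoe-/- cells it stood at 31.1, 44.6 and 34.5 RPKM untreated, 30.6, 34.5 and 25.1 RPKM at oxLDL 10 and 26.6, 26.5 and 24.0 RPKM at oxLDL 60. In DKO cells it stood at 46.0, 54.8 and 32.7 RPKM, then at 39.6, 48.3 and 23.5 RPKM, then at 40.1, 45.8 and 21.3 RPKM. Replicate 3 of DKO was the lowest library of its genotype at each treatment, and in DKO all 3 treatments overlapped. In Apoe-/- all oxLDL 60 libraries lay below all untreated libraries. At oxLDL 60 the log2 change of Il1rn was -0.50 (95% interval -1.07 to 0.08, limma adjusted p = 0.188) in Apoe-/- and -0.36 (-0.93 to 0.22, limma adjusted p = 0.381) in DKO. With the replicate number as a block, the change in Apoe-/- passed the test (limma adjusted p = 0.000372), while that in DKO had a limma adjusted p of 0.00582 but stayed under the 1.4-fold limit. The change in Apoe-/- also passed when only the groups compared were fitted (limma adjusted p = 0.0135). Compared within each replicate, Il1rn was lower at oxLDL 60 in 6 of 6, with log2 changes from -0.75 to -0.20.

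**Figure D1:**
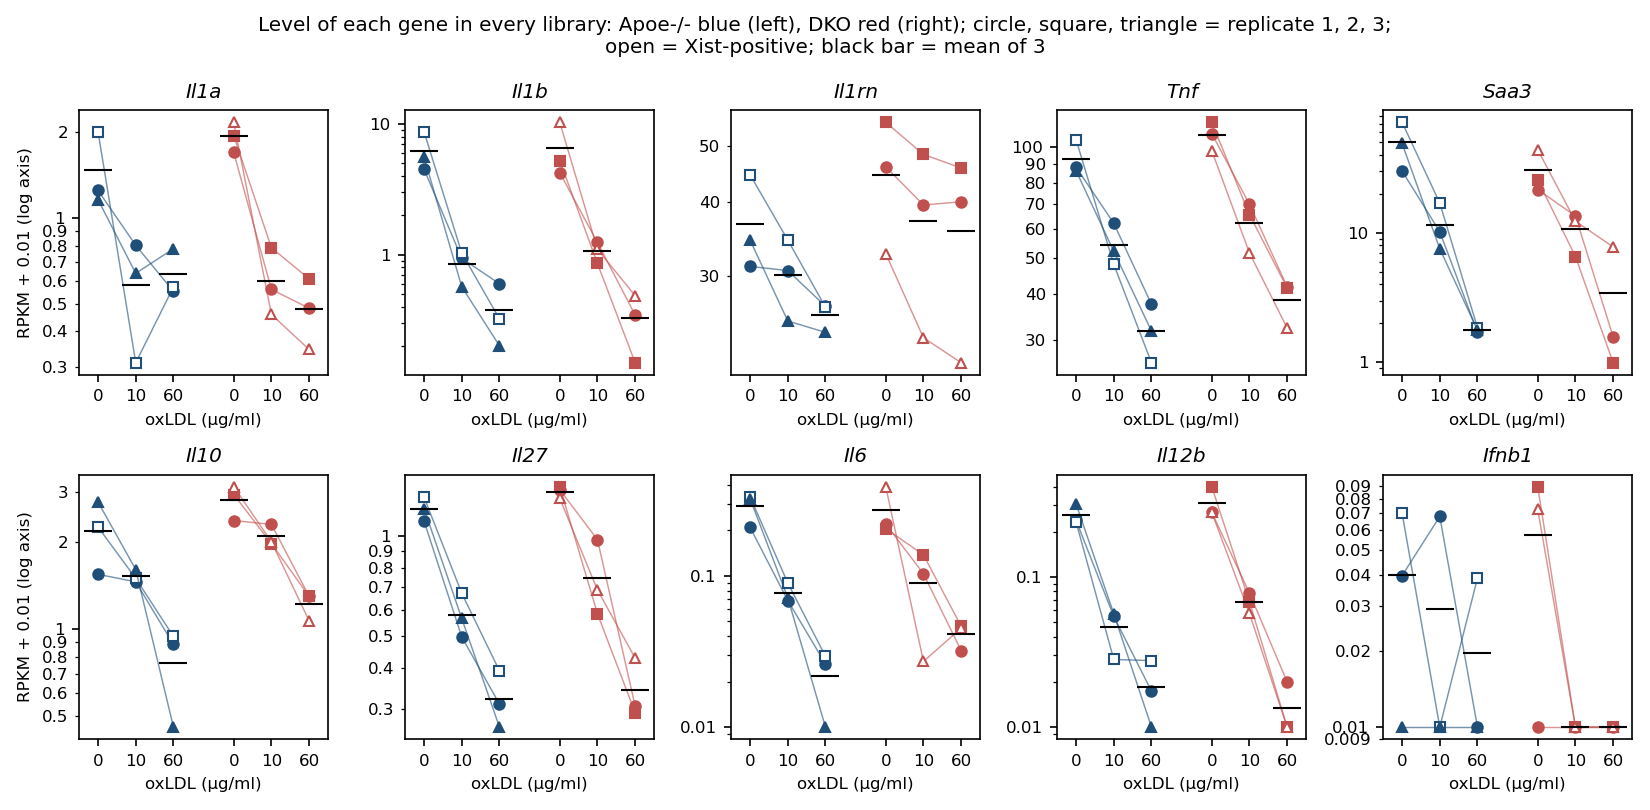
RPKM + 0.01 on log axes (each panel has its own range) for the 10 genes in all 18 libraries, with lines joining libraries of the same replicate number. Apoe-/- libraries are blue and DKO libraries red, circles, squares and triangles are replicates 1, 2 and 3, open symbols are Xist-positive libraries, and black bars are means of 3. Il1b, Tnf and Saa3 fall at each amount of oxLDL in every replicate, and Il1rn lies between 21.3 and 54.8 RPKM throughout.

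The balance of antagonist to agonist transcripts therefore moved. The ratio of Il1rn to Il1b was 6.91, 5.12 and 6.19 in untreated Apoe-/- cells, 33.0, 33.9 and 44.9 at oxLDL 10 and 45.2, 84.9 and 126 at oxLDL 60. In DKO cells it was 10.8, 10.4 and 3.19, then 32.1, 56.9 and 21.5, then 119, 329 and 44.8. In each genotype every treated library had a higher ratio than every untreated one. The mean log2 ratio rose 13.0-fold in Apoe-/- and 17.0-fold in DKO at oxLDL 60, and 6.12-fold and 4.78-fold at oxLDL 10. An exact two-sided permutation test gave p = 0.10 for each of these 4 comparisons, the smallest value that 3 against 3 libraries allow. Counted against both agonists, the ratio of Il1rn to the sum of Il1a and Il1b went from 4.91 ± 0.659 (SD, n = 3) to 26.3 ± 3.59 in Apoe-/- and from 6.00 ± 2.92 to 45.9 ± 18.1 in DKO at oxLDL 60. These are ratios of transcripts, and protein was not measured in this table.

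**Figure D2:**
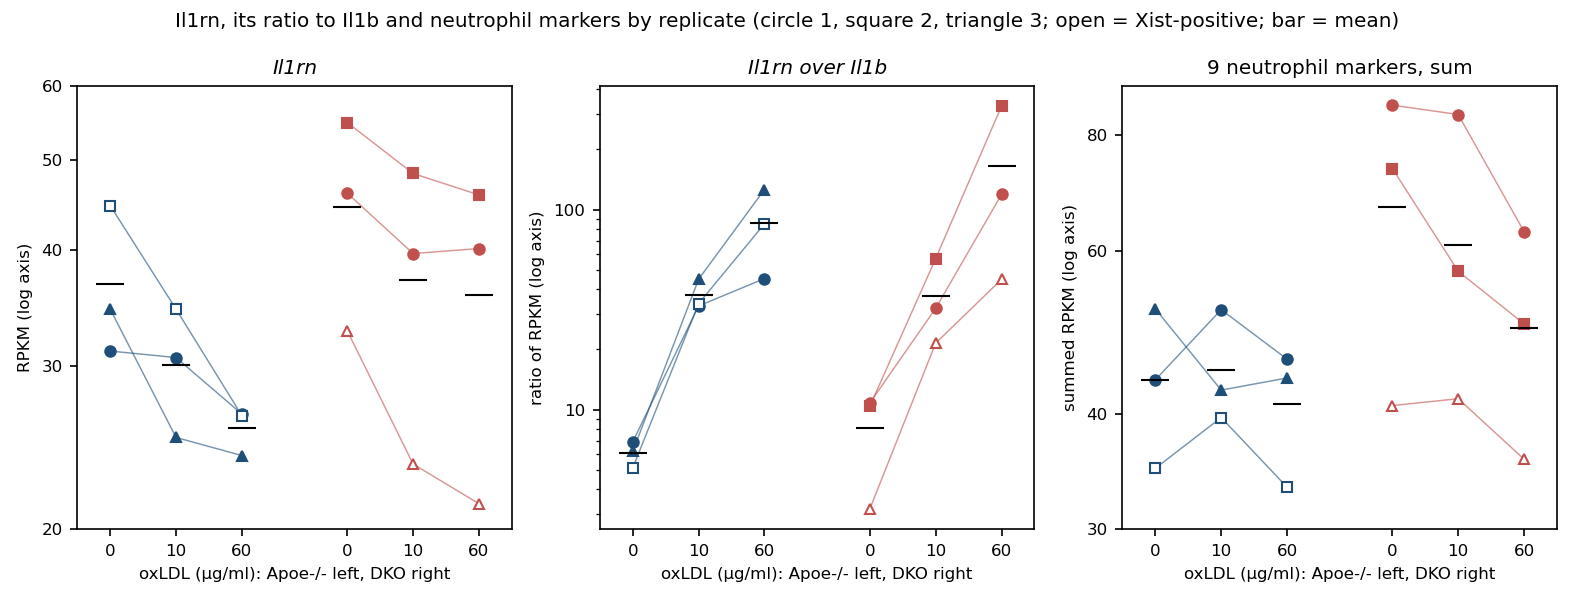
Il1rn in RPKM, the ratio of Il1rn to Il1b, and the summed RPKM of 9 neutrophil markers, each on a log axis, for every library; symbols are as in the plot of all 10 genes. The ratio is 3.19 to 10.8 in untreated libraries and 44.8 to 329 at oxLDL 60, and within each treatment DKO replicates 1 and 2 have both the highest Il1rn and the highest neutrophil marker sums.

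Tnf was the most abundant of the 10 genes in every group by its mean and fell in an even series. Apoe-/- cells held 88.4, 105 and 86.4 RPKM untreated, 62.2, 48.1 and 52.2 RPKM at oxLDL 10 and 37.5, 26.0 and 31.7 RPKM at oxLDL 60. DKO cells held 109, 117 and 98.0 RPKM, then 70.1, 65.7 and 51.7 RPKM, then 41.8, 41.5 and 32.3 RPKM. Within each genotype the 3 treatments did not overlap. Tnf fell 1.72-fold at oxLDL 10 (log2 change -0.79, SE 0.15, limma adjusted p = 0.00341) and 2.95-fold at oxLDL 60 (-1.56, SE 0.15, limma adjusted p = 3.66e-07) in Apoe-/- cells. In DKO cells it fell 1.74-fold (limma adjusted p = 0.00389) and 2.81-fold (limma adjusted p = 6.82e-07). The step from oxLDL 10 to oxLDL 60 also passed the test in both genotypes, at 1.71-fold in Apoe-/- (limma adjusted p = 0.00143) and 1.62-fold in DKO (limma adjusted p = 0.0035). None of these 6 calls was lost under any alternative that was run.

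Saa3 ranged from 0.981 to 71.6 RPKM over the 18 libraries. In untreated Apoe-/- cells it stood at 30.1, 71.6 and 49.2 RPKM, at oxLDL 10 at 10.2, 17.0 and 7.52 RPKM, and at oxLDL 60 at 1.70, 1.84 and 1.76 RPKM. In DKO cells it stood at 21.6, 25.6 and 43.9 RPKM untreated, at 13.5, 6.55 and 12.3 RPKM at oxLDL 10, and at 1.56, 0.981 and 7.78 RPKM at oxLDL 60. The Apoe-/- libraries were far apart untreated and close together at oxLDL 60, whereas in DKO the Xist-positive replicate 3 stayed above the other DKO libraries at oxLDL 60 and reached into the range of oxLDL 10. At oxLDL 60 Saa3 fell 25.4-fold in Apoe-/- (log2 change -4.67, SE 0.54, limma adjusted p = 4.49e-06) and 12.0-fold in DKO (-3.59, SE 0.54, limma adjusted p = 8.68e-05). Without DKO oxLDL 60 replicate 3 the DKO change was -4.44 (limma adjusted p = 5.51e-07). At oxLDL 10 the fall was 4.30-fold in Apoe-/- (limma adjusted p = 0.0271). This call did not survive leaving out any one of untreated replicates 2 and 3 and oxLDL 10 replicates 1 and 3, with limma adjusted p from 0.0545 to 0.111, and also with no filter on low values (limma adjusted p = 0.0666). In DKO the change at oxLDL 10 was -1.48 (95% interval -2.63 to -0.34, limma adjusted p = 0.183) and passed with the replicate number as a block (limma adjusted p = 0.0103), with Xist status added to the model (limma adjusted p = 0.022) and without the Xist-positive libraries (limma adjusted p = 0.0213). The step from oxLDL 10 to oxLDL 60 was 5.91-fold in Apoe-/- (limma adjusted p = 0.00378) and 4.30-fold in DKO (limma adjusted p = 0.0143). The DKO step was lost without any one of oxLDL 10 replicate 1 and oxLDL 60 replicates 1 and 2, with limma adjusted p from 0.0617 to 0.0814, and with only the groups compared (limma adjusted p = 0.0891).

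Il10, the restraining cytokine, changed mainly between the lower and the higher amount. Apoe-/- cells held 1.54, 2.25 and 2.75 RPKM untreated, 1.45, 1.49 and 1.60 RPKM at oxLDL 10 and 0.876, 0.934 and 0.448 RPKM at oxLDL 60. DKO cells held 2.37, 2.92 and 3.11 RPKM, then 2.30, 1.97 and 2.00 RPKM, then 1.29, 1.29 and 1.06 RPKM. The untreated and oxLDL 10 libraries overlapped in Apoe-/-, and all oxLDL 60 libraries lay below all others of their genotype. At oxLDL 60 Il10 fell 2.71-fold in Apoe-/- (limma adjusted p = 6.05e-05) and 2.20-fold in DKO (limma adjusted p = 0.000623). At oxLDL 10 the log2 change was -0.46 (95% interval -0.91 to -0.02, limma adjusted p = 0.207) in Apoe-/- and -0.40 (-0.85 to 0.05, limma adjusted p = 0.469) in DKO. The step between the 2 amounts passed the test in Apoe-/- (1.97-fold, limma adjusted p = 0.00472) and in DKO (1.67-fold, limma adjusted p = 0.0254). The DKO step was lost without any one of oxLDL 10 replicates 1 and 2 and oxLDL 60 replicates 2 and 3, with limma adjusted p from 0.0508 to 0.0955, without the Xist-positive libraries (limma adjusted p = 0.107), with no filter on low values (limma adjusted p = 0.056) and, by the fold limit, with a pseudocount of 1.

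Il27, the p28 subunit, fell in a manner close to Tnf but from a level near 1 RPKM. It stood at 1.10, 1.30 and 1.20 RPKM untreated, 0.486, 0.662 and 0.554 RPKM at oxLDL 10 and 0.301, 0.382 and 0.255 RPKM at oxLDL 60 in Apoe-/- cells. In DKO cells it stood at 1.37, 1.4 and 1.29 RPKM, then at 0.966, 0.573 and 0.678 RPKM, then at 0.297, 0.283 and 0.418 RPKM. The 3 treatments did not overlap in either genotype. At oxLDL 60 the fall was 3.17-fold in Apoe-/- (limma adjusted p = 1.16e-06) and 3.39-fold in DKO (limma adjusted p = 6.91e-07). The calls at oxLDL 10 (1.96-fold in Apoe-/-, 1.76-fold in DKO) and between the amounts (1.62-fold and 1.92-fold) also passed. Of these, the DKO call at oxLDL 10 and both steps fell under the 1.4-fold limit with a pseudocount of 1. The DKO call at oxLDL 10 was also lost without oxLDL 10 replicate 2 (limma adjusted p = 0.0715) and with only the groups compared (limma adjusted p = 0.0562), and the Apoe-/- step was lost without oxLDL 10 replicate 2 (limma adjusted p = 0.0502) or oxLDL 60 replicate 3 (limma adjusted p = 0.0609).

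Il6, Il12b and Ifnb1 were near the limit of detection, and their values are given as reads, which the steps between low RPKM values allowed to be recovered. Il6 had 10, 16 and 16 reads in untreated Apoe-/- libraries, 3, 4 and 3 at oxLDL 10 and 1, 1 and 0 at oxLDL 60. In DKO libraries it had 10, 11 and 18 reads, then 5, 6 and 1, then 1, 2 and 2. Scaled to depth, the summed Il6 rate of untreated Apoe-/- cells was 22.7 times that at oxLDL 60, with an exact 95% counting interval of 5.91 to 194, and in DKO cells the ratio was 8.11 (3.19 to 26.4). Il12b, the p40 subunit, had 25, 24 and 33 reads untreated, 5, 2 and 5 at oxLDL 10 and 1, 2 and 0 at oxLDL 60 in Apoe-/- libraries. In DKO libraries it had 27, 48 and 27 reads, then 8, 6 and 6, then 1, 0 and 0. The Il12b ratio of rates was 29.6 (9.77 to 146) in Apoe-/- and 106 (18.6 to 4228) in DKO. These intervals pool the reads of the 3 libraries of a group, so they cover counting error only and not the spread between replicates. PCR can make several reads of 1 molecule, so even the counting error may be understated. Every treated library had fewer reads of Il6 and of Il12b than every untreated library of its genotype. The log2(RPKM + 0.1) changes at oxLDL 60, from -1.43 to -1.95 with limma adjusted p from 3.39e-07 to 0.000283, understate such ratios. With a pseudocount of 1 these changes were -0.29 to -0.37, under the 1.4-fold limit. At oxLDL 10 both genes were also called lower in both genotypes, and all 4 of these calls were lost with a pseudocount of 1. The Il6 call in Apoe-/- was also lost with a pseudocount of 0.01 (limma adjusted p = 0.0525). The Il6 call in DKO was also lost with a pseudocount of 0.01 (limma adjusted p = 0.0903), with only the groups compared (0.163), without untreated replicate 3 (0.15), without oxLDL 10 replicate 3 (0.0842) and without the Xist-positive libraries (0.421). The step of Il12b between the 2 amounts passed in DKO (limma adjusted p = 0.0282) and was lost without any one of oxLDL 10 replicates 1 and 2 and oxLDL 60 replicates 2 and 3, with limma adjusted p from 0.0706 to 0.0987, with only the groups compared (0.0692), without the Xist-positive libraries (0.134) and with a pseudocount of 1 (0.222). Both genes entered the test through their untreated libraries, since Il6 reached 0.1 RPKM in 6 untreated and 1 treated library and Il12b in the 6 untreated libraries. Ifnb1 had 11 reads in all 18 libraries together, 8 of them in untreated libraries, 2 at oxLDL 10 and 1 at oxLDL 60, and it was at 0 in 12 libraries. No library exceeded 3 reads of Ifnb1, and it was not tested.

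Counted over the group, 8 of the 9 tested genes were called lower at oxLDL 60 in Apoe-/- cells and 8 of 9 in DKO cells, all but Il1rn, where called means an adjusted p under 0.05 and a change of at least 1.4-fold in the fit without the replicate block. With the block the count in Apoe-/- was 9, Il1rn included, and with a pseudocount of 1 it was 6 in each genotype, without Il6 and Il12b. Of all genes tested, 6.78% were called lower and 7.13% higher at oxLDL 60 in Apoe-/-, and 7.31% lower and 4.87% higher in DKO. None of the 9 was called higher. Leaving aside Il6 and Il12b, 6 of the 7 genes that reached 0.1 RPKM in all 18 libraries were called lower in each genotype, and their median log2 change was -1.56 in Apoe-/- and -1.76 in DKO, against medians of 0.06 and -0.06 over all genes tested. At oxLDL 10, 7 of 9 were called lower in Apoe-/- (2.04% of all genes tested) and 6 of 9 in DKO (1.69%), or 5 and 4 of those 7. From oxLDL 10 to oxLDL 60, 4 of 9 were called lower in Apoe-/- (Tnf, Saa3, Il10 and Il27, 3.54% of all genes tested) and 6 of 9 in DKO (also Il1b and Il12b, 3.74%), or 4 and 5 of those 7. The Il12b step lay between libraries that were all under 0.1 RPKM. Without DKO oxLDL 10 replicate 1 the last count was 3, and without DKO oxLDL 60 replicate 2 it was 2. With a pseudocount of 1 in place of 0.1, the DKO counts were 3 at oxLDL 10 and 2 between the amounts. Both amounts of oxLDL were compared with the same untreated libraries, so that these counts are not independent. The summed macrophage markers were also lower at oxLDL 60, at 6529 to 8483 RPKM against 8932 to 11764 RPKM untreated in Apoe-/- and at 5560 to 7152 against 8383 to 10951 RPKM in DKO, with Mertk, an efferocytosis receptor, called higher and Cd14, Fcgr1 and Lyz2 called lower in both genotypes. Lyz2 made up most of the sum, at 8554 ± 1234 RPKM in untreated Apoe-/- cells. Cd68, on the same list, stood at 484 ± 44.6 RPKM untreated and 647 ± 26 RPKM at oxLDL 60 in Apoe-/- and at 488 ± 37.2 and 595 ± 20.2 RPKM in DKO, under the 1.4-fold limit. Their part in the fall of the cytokine genes was not tested.

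**Figure D3:**
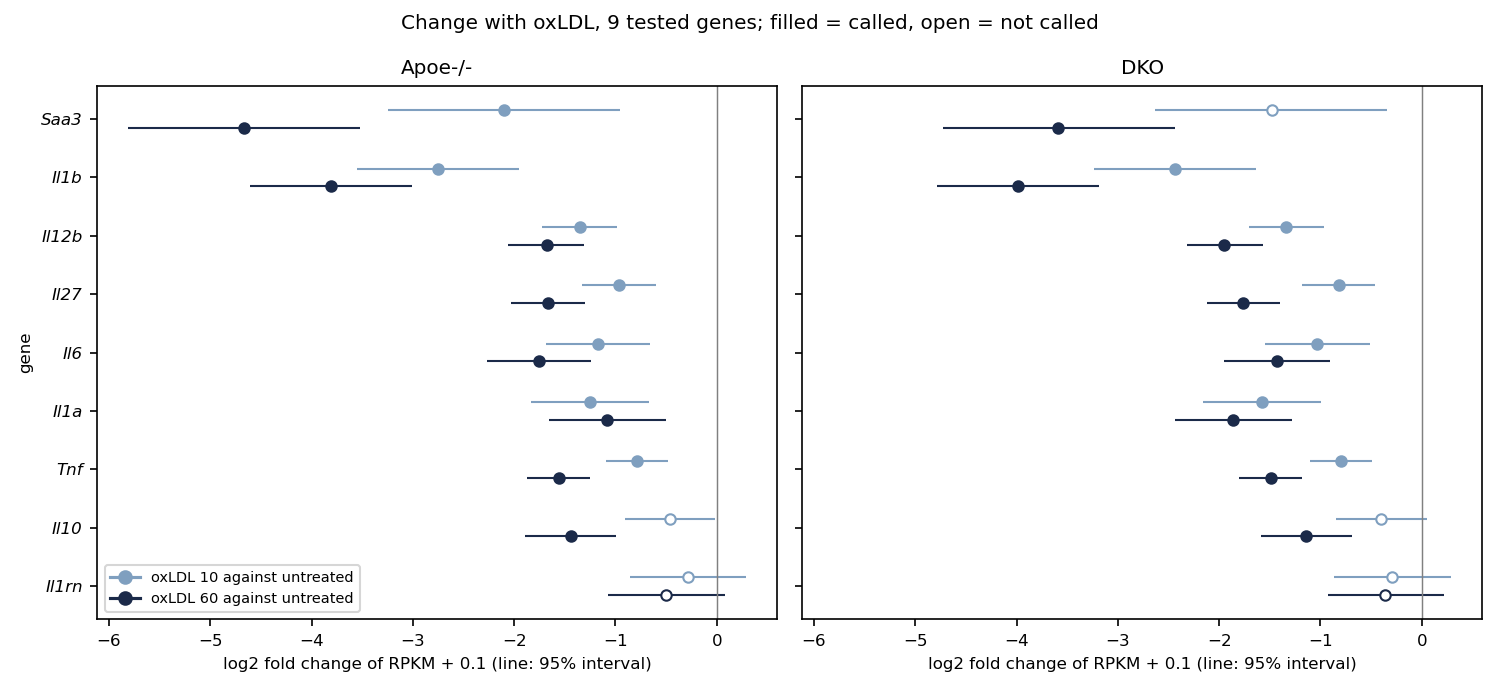
Log2 fold change of RPKM + 0.1 against untreated cells for the 9 tested genes in Apoe-/- (left) and DKO (right), at oxLDL 10 (pale) and oxLDL 60 (dark), with 95% intervals from limma; filled points were called. Saa3 and Il1b have the largest falls at oxLDL 60, between 3.59 and 4.67 on the log2 scale, and Il1rn is open throughout.

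The genes differed in how much of their fall was present at the lower amount. Compared within replicates, each of the 9 genes was lower at oxLDL 10 than untreated in 6 of 6 replicates, and at oxLDL 60 likewise. On the log2 scale, the mean change at oxLDL 10 amounted to 72.1% of that at oxLDL 60 for Il1b in Apoe-/- and to 61.1% in DKO, and for Il1a to 116% and 84.9%. For Tnf the shares were 50.3% and 53.4% and for Il27 58.1% and 46.5%. Saa3 reached 45.1% and 41.4%, and Il10 32.2% and 35.1%. The shares were 80.4% and 68.7% for Il12b and 66.9% and 72.1% for Il6, but these are overstated. Both genes were near 0 reads at oxLDL 60, where the pseudocount of 0.1 limits the fall. Scaled to depth, the untreated Il12b rate was 6.82 times that at oxLDL 10 and 29.6 times that at oxLDL 60 in Apoe-/-. In DKO these ratios were 5.35 and 106. For Il6 they were 4.19 and 22.7 in Apoe-/- and 3.41 and 8.11 in DKO. Replicates differed widely, and for Saa3 the share ran from 38.1% to 57.0% in Apoe-/- and from 18.2% to 73.6% in DKO, with replicate 3 the highest in both. These shares are a description and were not tested against each other. Il10 in replicate 1 of each genotype changed by -0.08 in Apoe-/- and -0.04 in DKO at oxLDL 10 and by -0.75 and -0.83 at oxLDL 60 on the log2 scale.

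The order of the levels changed with the treatment. In untreated Apoe-/- cells it ran from Tnf at 93.2 ± 10.1 RPKM (SD, n = 3) through Saa3 at 50.3 ± 20.8, Il1rn at 36.7 ± 7.03, Il1b at 6.26 ± 2.19, Il10 at 2.18 ± 0.61, Il1a at 1.46 ± 0.47 and Il27 at 1.20 ± 0.1 to Il6 at 0.28 ± 0.069, Il12b at 0.249 ± 0.0413 and Ifnb1 at 0.0299 ± 0.03. Saa3 and Il1rn overlapped, as did Il10 with Il1a, Il1a with Il27, and Il6 with Il12b. At oxLDL 60 the order in Apoe-/- was Tnf at 31.7 ± 5.78 and Il1rn at 25.7 ± 1.47, which overlapped, then Saa3 at 1.77 ± 0.0676, Il10 at 0.752 ± 0.265, Il1a at 0.625 ± 0.126, Il1b at 0.364 ± 0.204 and Il27 at 0.313 ± 0.0644 RPKM. Of these, Il10 overlapped both Il1a and Il1b, Il1a overlapped Il1b, and Il1b overlapped Il27. Saa3 had dropped from the level of Il1rn to far below it, and Il1b from above Il10 to a range that overlapped it. The 10 genes summed to 192 ± 39.8 RPKM untreated and to 61.3 ± 6.08 RPKM at oxLDL 60 in Apoe-/-, and to 196 ± 12 and 80.1 ± 14.4 RPKM in DKO. Il1rn supplied 19.2% ± 0.385 of that sum untreated and 42.2% ± 4.15 at oxLDL 60 in Apoe-/-, and 22.6% ± 4.88 and 43.6% ± 8.94 in DKO. The share of Saa3 went from 25.5% ± 5.85 to 2.91% ± 0.379 in Apoe-/- and from 15.5% ± 6.34 to 5.04% ± 6.22 in DKO, and that of Tnf was between 44.4% and 59.2% in every library.

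To ask whether loss of Treml4 altered these genes, DKO was compared with Apoe-/- at each treatment. None of the 9 tested genes was called by limma at any treatment, while 0.21% of all genes tested were called in either direction untreated, 0.0857% at oxLDL 10 and 0.125% at oxLDL 60. At an unadjusted p under 0.05, 0 of 9 passed untreated and at oxLDL 10, against 17.3% and 9.75% of all genes tested, and 1 of 9 at oxLDL 60, against 7.88%. The 1 was Il10, which was higher in DKO by 0.67 on the log2 scale (95% interval 0.23 to 1.12, limma adjusted p = 0.44, range over alternatives 0.156 to 0.97). Without Apoe-/- oxLDL 60 replicate 3, its lowest library, the difference was 0.38. Its DKO libraries lay above all Apoe-/- libraries at oxLDL 10 and at oxLDL 60 and overlapped them untreated, where the difference was 0.38 (-0.07 to 0.82). By RPKM, the DKO libraries also lay above all Apoe-/- libraries for Il6 at oxLDL 60 and Il12b at oxLDL 10, with at most 8 reads each. The share of all genes that separate in this way is not given here. Averaged over the 3 treatments, Il10 was 0.44, 0.65 and 0.47 in the Apoe-/- replicates and 1.02, 1.04 and 0.99 in the DKO replicates on the log2(RPKM + 0.1) scale. An exact two-sided permutation test of these 6 values gave p = 0.10, the smallest that it can give, for the gene of 3 compared in this way that differed most (Benjamini-Hochberg adjusted p = 0.30 by the permutation test). The 3 were Il10, Il1rn and Tnf, which were not fixed in advance. The adjustment covers these 3 and not all 9 tested genes. Tnf was higher in DKO by 0.21 untreated, 0.20 at oxLDL 10 and 0.28 at oxLDL 60 (95% interval -0.02 to 0.59), with overlapping libraries and limma adjusted p from 0.455 to 0.652. Without the Xist-positive libraries, both DKO libraries lay above both Apoe-/- libraries in Tnf at each treatment, though Tnf was not called.

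Il1rn differed between genotypes by 0.26 untreated, 0.25 at oxLDL 10 and 0.40 at oxLDL 60 (95% interval -0.18 to 0.98), with limma adjusted p from 0.638 to 0.764. The 2 DKO replicates without Xist had the highest Il1rn of the 6 libraries at every treatment, and the Xist-positive DKO replicate had the lowest at oxLDL 10 and at oxLDL 60. Those 2 replicates also had the highest Tnf of the 6 libraries at every treatment. Without the 6 Xist-positive libraries, which leaves 2 libraries in each group, Il1rn was the 1 gene of the 9 called, higher in DKO by 0.62 untreated (limma adjusted p = 0.0155), 0.66 at oxLDL 10 (0.0239) and 0.76 at oxLDL 60 (0.0111). The same replicates were used at each treatment, so that these calls are not independent. The share of all genes called in this fit is not given here. The sum of the neutrophil markers was also highest in the 2 DKO replicates without Xist at every treatment. Their summed level was 86.2, 73.6 and 40.8 RPKM in untreated DKO replicates 1 to 3 and 43.5, 34.9 and 51.9 RPKM in untreated Apoe-/- replicates, and at oxLDL 60 62.9, 50.0 and 35.7 RPKM against 45.8, 33.3 and 43.7 RPKM. S100a8 and S100a9 made up most of it, Mpo and Elane were at most 1.55 RPKM in every library, and Ly6g was at or near 0. Untreated, Ngp was highest in the same 2 replicates, but Mpo, Elane, Camp and Csf3r were not. Mpo was 1.22, 0.997 and 0.936 RPKM in untreated DKO and 1.47, 1.08 and 1.22 RPKM in untreated Apoe-/-. Among untreated Apoe-/- libraries, replicate 2 had the highest Il1rn (44.6 RPKM) and the lowest sum (34.9 RPKM). The part of neutrophils, and of the sex of the mice, in the Il1rn difference was not tested.

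**Figure D4:**
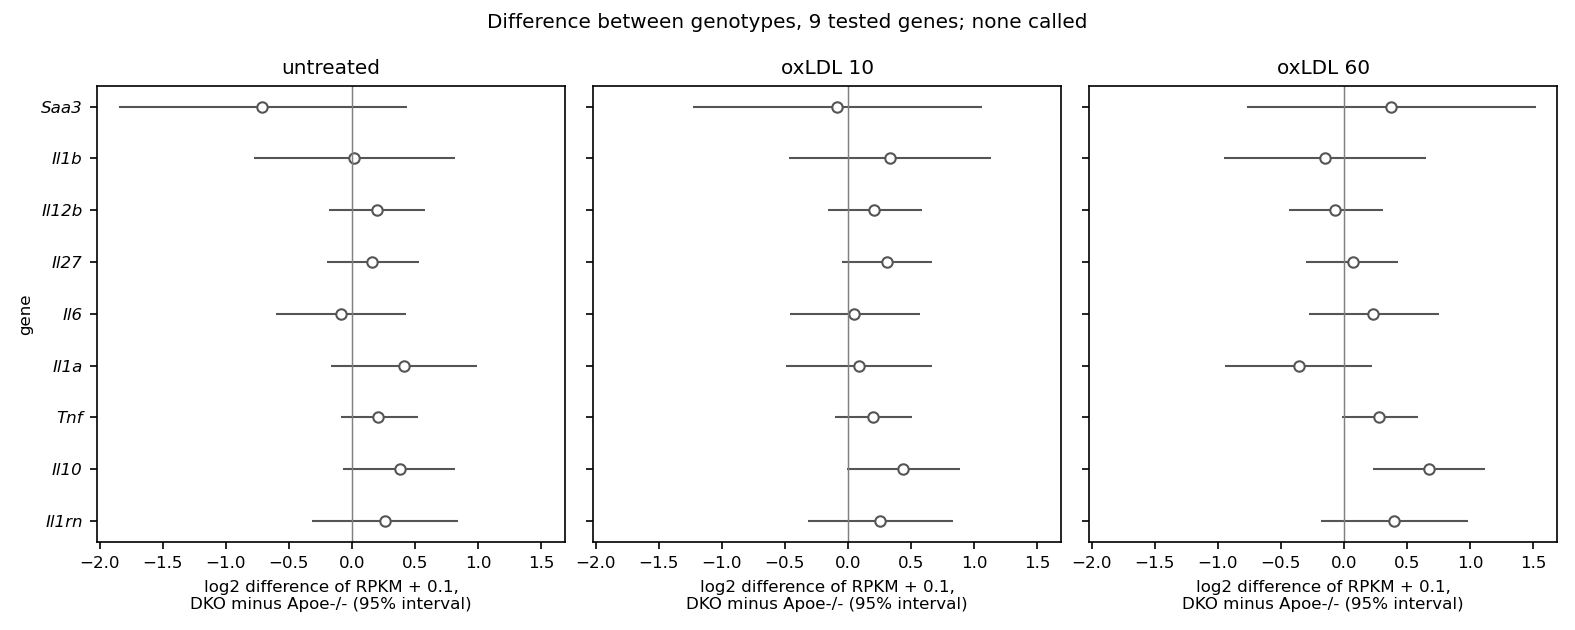
Log2 difference of RPKM + 0.1, DKO minus Apoe-/-, with 95% intervals from limma for the 9 tested genes, untreated and at oxLDL 10 and oxLDL 60. No gene was called, the interval of Il10 at oxLDL 60 runs from 0.23 to 1.12, and Saa3 has the widest intervals.

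Saa3 was lower in DKO by 0.71 untreated (95% interval -1.85 to 0.44, limma adjusted p = 0.511), and higher by 0.37 at oxLDL 60 (-0.77 to 1.52, limma adjusted p = 0.886), where its sign turned without DKO replicate 3 (-0.48) or without the Xist-positive libraries (-0.45). Without those libraries Saa3 was lower in both DKO libraries than in both Apoe-/- libraries untreated and at oxLDL 60, but not at oxLDL 10. Il1b differed by 0.02 untreated (-0.78 to 0.82), and Il1a by 0.41 untreated (-0.17 to 0.99) and by -0.36 at oxLDL 60 (-0.94 to 0.22). The intervals leave room for differences of more than 1.5-fold in most of these genes, so that equal levels are not shown.

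Whether the response to oxLDL itself differed between the genotypes was tested as an interaction. None of the 9 genes was called by limma at oxLDL 60, where 0.0156% of all genes tested were, nor at oxLDL 10, where 0% were. At an unadjusted p under 0.05, 0 of 9 passed in either, against 9.78% and 1.92% of all genes tested. The largest estimates at oxLDL 60 were a smaller fall of Saa3 in DKO, by 1.08 on the log2 scale (95% interval -0.54 to 2.70, limma adjusted p = 0.622), and a larger fall of Il1a in DKO, by -0.77 (-1.60 to 0.05, limma adjusted p = 0.515). The Saa3 estimate was 0.23 without DKO oxLDL 60 replicate 3, 1.66 without DKO oxLDL 60 replicate 2 and 0.26 without the Xist-positive libraries. The Il1a estimate was -0.41 with a pseudocount of 1. For Il10 the estimate was 0.30 (-0.34 to 0.93), with 0.0064 without Apoe-/- oxLDL 60 replicate 3 and 0.59 without the Xist-positive libraries as its extremes over the alternatives.

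Among the receptors of these cytokines, 3 of 14 tested were called lower at oxLDL 60 in both genotypes. Of all genes tested, 6.78% were called lower in Apoe-/- and 7.31% in DKO, and 7.13% and 4.87% were called higher. The lists were not tested as sets. Tnfrsf1b, the second TNF receptor, fell 1.60-fold in Apoe-/- and 1.44-fold in DKO, Ifnar1, a chain of the type I interferon receptor, fell 1.51-fold and 1.53-fold, and Il10ra fell 1.46-fold in both. Il12rb1, named after its values were seen, was called higher in Apoe-/-. The median log2 change of the 14 genes was -0.24 and -0.25, and at oxLDL 10 none was called. Of 10 tested partner subunits and related cytokines, 4 were called lower in both genotypes and 2 higher. Csf2, on this list and named after its values were seen, had means of 0.199 RPKM untreated and 0.0119 RPKM at oxLDL 60 in Apoe-/-. In DKO its means were 0.516 and 0.028 RPKM. It reached 0.1 RPKM only in untreated and DKO oxLDL 10 libraries, and so entered the test through these. Ebi3, which pairs with the Il27 product to make IL-27, fell 1.47-fold in Apoe-/- and 1.59-fold in DKO, and Il18 and Il15 fell 1.44-fold and 1.68-fold in Apoe-/-. Osm, the gene of oncostatin M, rose from 1.57 ± 0.206 to 4.44 ± 0.206 RPKM in Apoe-/- (2.73-fold, limma adjusted p = 0.00038) and 2.34-fold in DKO. Il18bp, the soluble inhibitor of IL-18, rose 1.93-fold and 1.88-fold. The gene of the IL-18 inhibitor thus rose where Il18 fell.

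Genes that mature and release IL-1 and TNF fell in part. Of 8 tested, 4 were called lower at oxLDL 60 in Apoe-/- (6.78% of all genes tested) and 5 in DKO (7.31%). Their median log2 changes were -0.50 and -0.53. Nlrp3, the sensor of the inflammasome that activates caspase-1, stood at 22.1, 26.8 and 21.8 RPKM untreated and 9.48, 9.11 and 8.87 RPKM at oxLDL 60 in Apoe-/- cells, a 2.55-fold fall (limma adjusted p = 8.98e-10), and fell 2.47-fold in DKO. Casp4, the caspase that senses intracellular LPS, fell 2.41-fold and 2.14-fold. Rhbdf2, which carries the TNF-releasing protease ADAM17 to the cell surface, fell 1.44-fold and 1.51-fold.

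Of 16 tested transcription factors and inhibitors that act on these genes, 9 were called lower and 1 higher at oxLDL 60 in each genotype. Of all genes tested, 6.78% were called lower in Apoe-/- and 7.31% in DKO, and 7.13% and 4.87% higher. The median log2 change of the 16 was -0.60 in both. Nfkbiz, an NF-κB cofactor needed for Il6 and Il12b transcription, fell from 9.29 ± 1.55 to 2.09 ± 0.117 RPKM in Apoe-/- (4.25-fold, limma adjusted p = 1.41e-09) and 3.99-fold in DKO. Irf7, an interferon regulatory factor, fell 2.79-fold and 2.58-fold, and Cebpd 2.34-fold and 1.98-fold. Of the NF-κB subunit genes, named here after their values were seen, Nfkb1, Nfkb2 and Relb were called lower in both genotypes and Rela and Rel in neither. Atf3, a repressor of several cytokine genes, rose from 101 ± 19.5 to 188 ± 6.55 RPKM in Apoe-/- (1.89-fold, limma adjusted p = 2.61e-05) and 2.02-fold in DKO.

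Of 7 tested genes that bear on the life of cytokine mRNA, 3 were called lower at oxLDL 60 in Apoe-/- (6.78% of all genes tested) and 4 in DKO (7.31%), and none higher. Zfp36, which encodes tristetraprolin, a destabilizer of Tnf mRNA, fell 2.44-fold and 2.10-fold, Zc3h12c 3.10-fold and 2.71-fold, and Zfp36l1 3.34-fold and 2.71-fold. Of 5 tested acute phase genes other than Saa3, 4 were called lower in each genotype (6.78% and 7.31% of all genes tested), with median log2 changes of -1.08 and -1.12. Cp, Serpina3g and Ptx3, among the 5 and named here after their values were seen, were low. In Apoe-/- they stood at means of 0.401, 0.35 and 0.083 RPKM untreated and 0.153, 0.114 and 0.0792 RPKM at oxLDL 60. The pseudocount of 0.1 weighs on changes at such levels. Lcn2, the gene of lipocalin-2, stood at 4.16, 3.52 and 4.46 RPKM untreated and 1.86, 1.46 and 1.78 RPKM at oxLDL 60 in Apoe-/- and fell 2.30-fold, and 2.47-fold in DKO. Lcn2 is also made by neutrophils, whose markers were given above. None of the 8 tested neutrophil markers was called at oxLDL 60 in either genotype. The summed level of the listed markers in DKO went from 86.2, 73.6 and 40.8 RPKM untreated to 62.9, 50.0 and 35.7 RPKM at oxLDL 60. In Apoe-/- it went from 43.5, 34.9 and 51.9 RPKM to 45.8, 33.3 and 43.7 RPKM. The part of neutrophils in the fall of Lcn2 was not tested.

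The genes whose profile over the 18 libraries was nearest to each cytokine gene were sought among 10102 genes with a mean of at least 1 RPKM, by the root mean square difference of log2 profiles centred on their means. Nearest to Il1b was Socs3, a feedback inhibitor of cytokine signalling, at a difference of 0.38, followed by Cd69 at 0.54 and Gbp5 at 0.58, against a spread of Il1b itself of 1.68. Nearest to Tnf were Slamf9 at 0.16, Cd40 at 0.17 and Fasn at 0.18, against a spread of 0.66. Saa3 had Ifit1, an interferon-induced gene, at 0.46 and the formyl peptide receptor genes Fpr1 and Fpr2 at 0.52 each, against a spread of 1.82. Il10 was nearest to Irf7 at 0.26, with Sla and Myo1e at 0.27 each, and Il1rn to Mmp13 at 0.16, Cd83 at 0.19 and Gadd45b at 0.21, against spreads of 0.64 and 0.40. All of these profiles share the same libraries and the same effect of oxLDL.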

How the data were processed

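RNA-seq was made from 18 libraries of BMDM. The authors deposited 1 table of RPKM values per gene and library, and the labels name STAR and mm10. The version of the aligner and whether counting used the strand are not given in the sources used here. RPKM is not a count, so that no count model was fitted; where steps between low values allowed it, depth and reads were recovered (84.4% of 43554 low values within 0.05 of a whole read). Log2(RPKM + 0.1) of the 12838 genes that reached 0.1 RPKM in 3 or more libraries was fitted over all 6 groups with limma 3.58.1 (lmFit and eBayes with trend, R 4.3.3, statmod 1.5.0). Adjusted p-values are Benjamini-Hochberg values over all genes tested. A gene was called at an adjusted p under 0.05 and a change of at least 1.4-fold. Ratios and means over treatments were compared by exact two-sided permutation tests (scipy 1.17.1, Python 3.11.15). The fits were tested on simulated data with independent noise in each library on the log2 scale. Those data held neither paired replicates nor read counts, so the test does not bear on the pairing or on genes with few reads. The p-values measure the spread between these samples.

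Replicate numbers paired the libraries within a genotype: deviations from the group means correlated above 0.1 in 18 of 18 same-number pairs (0.183 to 0.695, median 0.405), against a median of -0.347 between different numbers. Deviations sum to 0 within a group, so that the negative median follows from the positive one and is not separate evidence. Between genotypes the same number had a median of -0.168. Alternatives were other pseudocounts, filters, scaling, the replicate block, only the groups compared, no fold limit, a term for or removal of Xist-positive libraries (Xist above 1 RPKM), and leaving out each library. Named genes were the 10 genes and, from each fixed list, at most 3 higher and 3 lower genes of at least 1 RPKM on average called at oxLDL 60, by size of change, with the 3 nearest profiles of each of the 10 at that level. The genes and lists were chosen with earlier results of these data known. Promoters are RefSeq's for GRCm38.p6.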

Additional observations from a re-analysis of the deposited data

How the results depend on the processing

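Of the counts of called cytokine genes recomputed under alternatives, 181 stayed within 1.5 times and 7 did not. These include the counts between genotypes and for the interaction, which were 0 in the main fit. A count that stays at 0 says little of stability. At oxLDL 60, 8 genes were called in each genotype without any single library. Leaving out 1 library gave 5 to 7 genes at oxLDL 10 in Apoe-/-, 5 to 6 in DKO, 3 to 5 between the amounts in Apoe-/- and 2 to 6 in DKO. With a pseudocount of 1, the DKO counts were 3 at oxLDL 10 and 2 between the amounts. Without the Xist-positive libraries, 1 gene was called between genotypes at each treatment. The replicate block, which pairs libraries of a genotype, gained the calls of Il1rn at oxLDL 60 in Apoe-/- (-0.50), Saa3 at oxLDL 10 in DKO (-1.48) and Il1b between the amounts in Apoe-/- (-1.06), and changed no other call of these genes. Signs turned only where no call was made, and the cause was not tested. For Il1rn in DKO this was 0.0063 at oxLDL 10 without oxLDL 10 replicate 3 (range without 1 library -0.51 to 0.0063), and between the amounts 0.016 with libraries rescaled, 0.011 and 0.15 without oxLDL 10 replicates 1 and 2, and 0.27 without oxLDL 60 replicate 3 (range -0.36 to 0.27). For Il1a between the amounts in Apoe-/- it was -0.11 without Xist-positive libraries and -0.17 without oxLDL 10 replicate 2 (range -0.17 to 0.41). For Il1b between untreated genotypes it was -0.077 rescaled, -0.084 without Xist-positive libraries, -0.18 and -0.033 without Apoe-/- replicates 1 and 3, and -0.35 without DKO replicate 3 (range -0.35 to 0.28). For Saa3 between genotypes at oxLDL 60 it was -0.45 without Xist-positive libraries and -0.48 without DKO replicate 3 (range -0.48 to 0.96). Depth limits Il6, Il12b and Ifnb1, which had at most 8 reads in any treated library.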
